A study of Homo sapiens with 17 samples.

Results

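Sites of thyroid hormone receptor β (TRβ) in thyroid cells kept without hormone were set against the sites of BRG1, the ATPase of a chromatin remodeling complex, in the same condition. A TRβ region was counted as having BRG1 where at least 1 bp of it overlapped a BRG1 region of the vehicle list. On chromosomes 1 to 22 and X the vehicle lists held 1405 TRβ regions and 64289 BRG1 regions, of 266724 regions in the 8 lists of the series. Of the TRβ regions, 789 had BRG1 and 616 had none. Of the BRG1 regions, 842 had TRβ and 63447 had none.

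The cells were Nthy-ORI, an immortalised human line derived from normal thyroid epithelium. CUT&RUN, which uses an antibody-tethered nuclease to release the DNA around a protein, was run on nuclei of 500000 cells with antibodies to TRβ, BRG1, ARID1A or PBRM1. All groups shared a hormone starvation of 24 hours in medium free of phenol red with charcoal-stripped serum. They then received the vehicle, NaOH, or the thyroid hormone T3 at 10 nM, so hormone-free here means starved and given vehicle. The labels give 6 hours for each library, although the protocol text names 24 hours as well. The TRβ vehicle and BRG1 vehicle groups supplied the classes, and TRβ, BRG1, ARID1A and PBRM1 after T3 and ARID1A and PBRM1 after vehicle supplied lists to compare them with. Each of these 8 groups had 2 libraries and 1 deposited list of regions found in both. The 1 IgG library was not analysed here, and the read depth is not given in the sources used here. Nothing says that the libraries of a group came from separate cultures. The lists hold binding sites and no RNA, so the cell type label could not be checked against expressed markers.

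TRβ is a nuclear receptor that binds DNA, usually beside a retinoid X receptor, whether or not T3 is present. Without hormone it is known for recruiting corepressors such as NCOR1 with the deacetylase HDAC3, and with hormone for exchanging them for coactivators. BRG1, encoded by SMARCA4, slides and evicts nucleosomes as the motor of SWI/SNF complexes, in which ARID1A marks the BAF form and PBRM1 the PBAF form.

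Sequence is shown at gene starts, the stretches for which it was used here. The summit of a region is here the single position listed for it, which need not be the highest signal of either library. The 250 bases before the start, from RefSeq on GRCh38.p14 (hg38), are shown for the highest-ranked TRβ regions whose summit lay in such a stretch. The first 4 had BRG1 and the last 3 had none. Each is written 5′ to 3′ on the strand of its gene, with 1 stretch per region. Capitals mark GGGCGG or its reverse complement CCGCCC, a GC-rich hexamer.
LOC105372716 (chr20:62794282-62794531, minus strand): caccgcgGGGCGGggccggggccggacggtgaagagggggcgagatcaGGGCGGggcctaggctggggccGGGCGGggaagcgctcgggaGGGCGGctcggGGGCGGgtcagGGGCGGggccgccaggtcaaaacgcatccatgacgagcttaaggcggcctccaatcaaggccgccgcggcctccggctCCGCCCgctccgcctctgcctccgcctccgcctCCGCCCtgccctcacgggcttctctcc
BRD3OS (chr9:134025231-134025480, plus strand): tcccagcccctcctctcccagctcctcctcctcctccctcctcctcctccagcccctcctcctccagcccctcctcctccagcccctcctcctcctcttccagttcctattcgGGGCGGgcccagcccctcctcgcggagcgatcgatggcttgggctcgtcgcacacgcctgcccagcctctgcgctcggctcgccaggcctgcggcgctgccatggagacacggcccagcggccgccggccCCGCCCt
TMEM52 (chr1:1919280-1919529, minus strand): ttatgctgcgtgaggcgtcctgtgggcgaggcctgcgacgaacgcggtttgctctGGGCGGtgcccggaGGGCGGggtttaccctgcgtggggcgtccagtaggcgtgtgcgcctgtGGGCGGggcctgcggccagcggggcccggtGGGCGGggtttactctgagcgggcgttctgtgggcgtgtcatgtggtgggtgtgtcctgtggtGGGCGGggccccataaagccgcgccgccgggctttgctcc
SPSB2 (chr12:6873304-6873553, minus strand): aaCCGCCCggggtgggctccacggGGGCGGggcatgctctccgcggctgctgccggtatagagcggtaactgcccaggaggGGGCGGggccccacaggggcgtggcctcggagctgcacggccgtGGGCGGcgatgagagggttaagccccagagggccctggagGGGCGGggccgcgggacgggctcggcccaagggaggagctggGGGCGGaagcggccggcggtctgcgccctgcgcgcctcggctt
PROM2 (chr2:95274199-95274448, plus strand): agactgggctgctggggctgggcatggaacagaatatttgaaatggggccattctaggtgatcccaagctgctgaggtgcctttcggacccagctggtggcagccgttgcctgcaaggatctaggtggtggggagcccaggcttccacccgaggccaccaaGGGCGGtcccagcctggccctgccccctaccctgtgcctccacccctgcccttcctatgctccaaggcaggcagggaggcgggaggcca
ADAMTS10 (chr19:8592217-8592466, minus strand): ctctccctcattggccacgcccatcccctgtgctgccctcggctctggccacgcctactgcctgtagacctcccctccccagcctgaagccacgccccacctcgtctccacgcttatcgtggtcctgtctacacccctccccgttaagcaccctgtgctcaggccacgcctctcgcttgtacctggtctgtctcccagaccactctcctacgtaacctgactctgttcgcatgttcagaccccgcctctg
LOC124904292 (chr1:110525203-110525452, plus strand): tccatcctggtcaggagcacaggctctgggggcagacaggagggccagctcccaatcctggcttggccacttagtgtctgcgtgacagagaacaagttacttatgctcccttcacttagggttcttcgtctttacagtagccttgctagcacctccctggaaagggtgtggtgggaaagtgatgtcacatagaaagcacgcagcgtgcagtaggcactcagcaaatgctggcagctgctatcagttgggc

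The stretch at LOC105372716 held 8 copies of the hexamer, that at SPSB2 held 6, that at TMEM52 held 5 and that at BRD3OS held 2. The stretch at PROM2, a prominin gene, held 1 copy, and those at ADAMTS10, a metalloprotease gene, and LOC124904292 held 0. GC content was between 71.6% and 77.2% in the stretches with BRG1 and between 54.8% and 64.8% in those without. The ADAMTS10 start used by RefSeq's table lay 12211 bp from the nearest annotated gene end. The authors' signal value, a number that ranks regions within a list and is the sum over the 2 libraries, was 46.7 at LOC105372716, 46.4 at BRD3OS, 40.5 at TMEM52 and 34.6 at SPSB2. It was 17.2 at PROM2, 15.6 at ADAMTS10 and 14.6 at LOC124904292. All 4 regions with BRG1 also had ARID1A in vehicle and TRβ with T3. Of the 3 without BRG1 only the ADAMTS10 region had either, and it had both. These 7 were picked by rank and are examples, and the shares over all gene starts follow with the gene-start results.

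The first question was how often the hormone-free receptor was listed where BRG1 was. BRG1 was listed at 56.2% of TRβ regions (789 of 1405, exact 95% interval 53.5 to 58.8), whereas TRβ was listed at 1.31% of BRG1 regions (842 of 64289, 1.22 to 1.40). Most TRβ regions with BRG1 met a single BRG1 region (733), while 53 met 2 and 3 met 3. Intervals here cover counting error over regions only. With 1 list per group there is no check across replicates, and p-values below describe these lists, not the spread between cultures. The lists differ greatly in length: with only the 1405 BRG1 regions of highest signal value, 6.48% of TRβ regions had BRG1. The share was 79.4% (158 of 199) among regions at an irreproducible discovery rate (IDR, which gauges how well the rank of a region recurs between libraries) of at most 0.01, and 27.3% when each region had to cover 50% of the other.

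The stronger and the wider a TRβ region, the more often BRG1 was listed there. From the lowest to the highest quintile of TRβ signal value the share with BRG1 was 29.9%, 41.3%, 53.7%, 71.2% and 84.7%, with 281 regions in each. By quintiles of TRβ width it was 40.9%, 45.9%, 51.6%, 58.7% and 83.6%. Within similar signal value the first 3 quintiles of width showed no steady rise. Below the median signal value their shares lay between 35.4% and 36.3%, and above it between 63.6% and 75.4%. In the next quintile of width the shares were 48.5% and 64.3%, and in the last 65% (13 of 20) and 85.1% (222 of 261). TRβ regions with BRG1 had a median signal value of 13.4 (quartiles 11.3 and 16.8) against 10.7 (9.83 and 12.3) without. Both libraries showed this, with medians of 6.51 against 5.32 in the first and 6.77 against 5.44 in the second as the file orders them. No region without BRG1 exceeded a signal value of 27.6, while the highest with BRG1 reached 123.2.

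**Figure D1:**
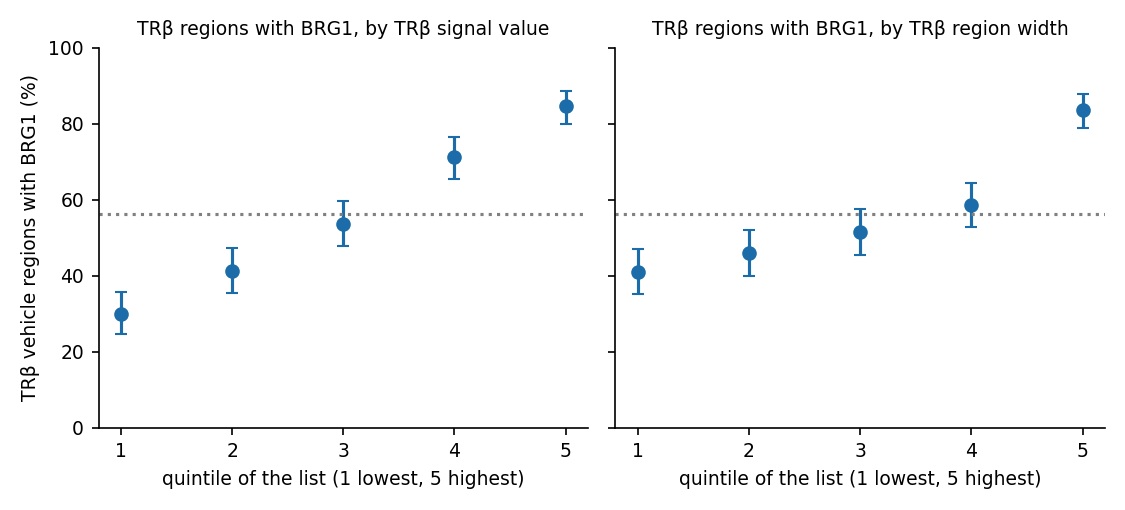
Share of TRβ vehicle regions with BRG1 (%), by quintile of the authors' TRβ signal value (left) and of TRβ region width (right). Points are shares of 281 regions, bars are exact 95% intervals over regions, and the dotted line is the share in the whole list, 56.2%. The share climbs from 29.9% to 84.7% by signal value, and by width it is 83.6% in the last quintile and at most 58.7% in the others.

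Seen from BRG1, TRβ was listed mainly at its strong, wide sites. TRβ was listed at 0.420% of BRG1 regions in the lowest quintile of BRG1 signal value and at 3.53% in the highest. BRG1 regions with TRβ had a median width of 1778.5 bp (quartiles 1059.5 and 2593.8) against 753 bp (482 and 1253) without. Their median signal values were 21.4 and 12.3. TRβ regions with BRG1 were also wider than those without, with medians of 979 bp (739 and 1328) and 780.5 bp (606 and 975.25). Wider regions meet the overlap rule more readily, and how much of these width differences follows from the rule was not tested.

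The next question was how the sites lay on each other. A TRβ region typically sat inside a broader BRG1 region. Of the 789 TRβ regions with BRG1, 474 (60.1%, 56.6 to 63.5) lay wholly inside a BRG1 region, 86 (10.9%) held a whole BRG1 region and 229 (29.0%) overlapped in part. The TRβ summit fell inside a BRG1 region at 741 of 789 (93.9%). Among the 848 overlapping pairs, BRG1 was the wider in 651 (76.8%), with a median width ratio of 1.64.

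The listed summits of TRβ and BRG1 were a median of 212 bp apart (95% interval of the median 195 to 230, quartiles 85 and 447). They lay within 100 bp at 230 regions (29.2%), within 250 bp at 448, within 500 bp at 613 and within 1000 bp at 728. The distance grew with BRG1 width: its median was 143 bp for BRG1 regions under 1000 bp, 181 bp from 1000 to under 2000 bp and 293.5 bp from 2000 bp upward. Across quintiles of TRβ width the medians stayed between 199 and 228 bp.

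For scale, the summits of the 2 libraries of the same region differed by a median of 39 bp for TRβ (121 regions) and 82 bp for BRG1 (20372 regions). Those values come only from regions whose listed summit is the mean of the library summits to within 1 bp, which are narrower than most. In the 32 overlapping pairs where both summits met that condition the TRβ to BRG1 distance was a median of 17.5 bp (5 to 60). The 212 bp of the whole class is thus larger than either library difference, and the 17.5 bp of these pairs is smaller than both. With the library summits in place of the listed one the median distance was 371 bp in the first library and 369 bp in the second.

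**Figure D2:**
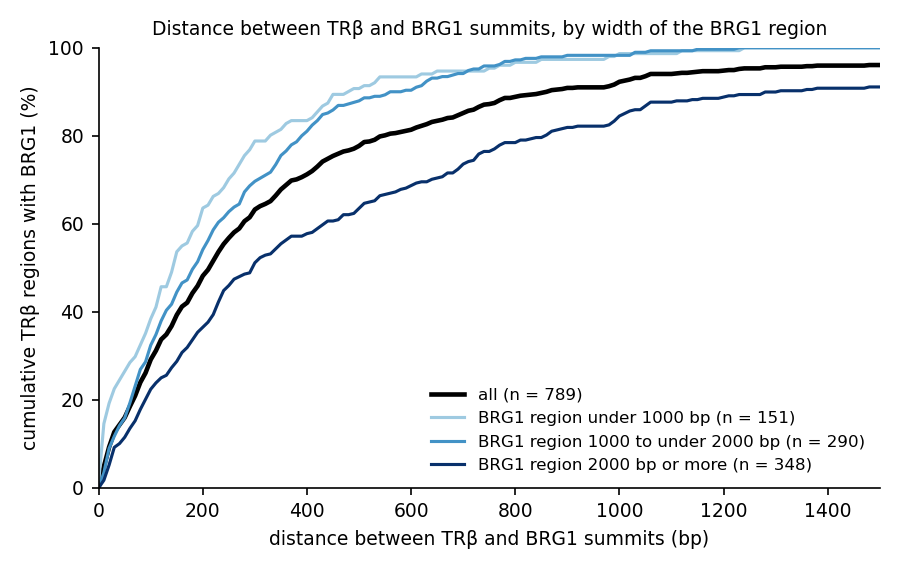
Cumulative share (%) of TRβ regions with BRG1 against the distance between the TRβ and BRG1 summits (bp), for all 789 regions (black) and by width of the BRG1 region (blue lines, darker for wider). The curve for BRG1 regions of 2000 bp or more lies lowest, with a median of 293.5 bp against 143 bp for regions under 1000 bp.

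The regions with the nearest summits, among TRβ regions above the median signal value, were at named genes with varied roles. Inside ULK1, a kinase gene that starts autophagy, the summits coincided (distance 0 bp). The TRβ region there (chromosome 12, 131916820 to 131917292) contained a BRG1 region of 100 bp, and all 8 lists held the site. Near POLR2E, which encodes an RNA polymerase subunit (chromosome 19, 1082059 to 1082748), the distance was 0 bp too. It was 1 bp at BRD3OS (chromosome 9, 134024836 to 134025686), the start shown above, and 1 bp at a site 89268 bp from an end of UBE3A, a ubiquitin ligase gene (chromosome 15, 25527849 to 25528538). The UBE3A site was listed for neither TRβ nor BRG1 after T3.

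TRβ regions without BRG1 seldom lay right beside a BRG1 region, yet most had one within 25000 bp. The gap to the nearest one had a median of 11532 bp (quartiles 4052 and 36887). Of the 616, 31 lay within 500 bp of a BRG1 region (5.03%), 184 within 5000 bp and 413 within 25000 bp (67.0%). Counting those 31 as having BRG1 moved the share with BRG1 from 56.2% to 58.4%.

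The strongest TRβ site with BRG1 was a region inside STMN3, which encodes a microtubule-destabilising stathmin (chromosome 20, 63641270 to 63642741). Its signal value was 123.2, from 57.6 and 65.6 in the libraries, and its BRG1 region had 23.02. A 6559-bp region inside MNT, a MAX-binding repressor gene of the MYC network (chromosome 17, 2395691 to 2402249), had 75.2, from 31.2 and 44.0. It lay in a BRG1 region of 10552 bp and was present in all 8 lists, yet the summits were 1627 bp apart. GRK1, which encodes the rhodopsin kinase (chromosome 13, 113724567 to 113727947), followed with 70.5, from 31.9 and 38.6.

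Next in rank was a region inside ALLC, an allantoicase gene (chromosome 2, 3651320 to 3651442), with 49.6 after 50.5 at TMEM276-ZFTRAF1. The ALLC region was only 123 bp wide, lay in all 8 lists and had the highest signal value of the BRG1 list, 176.1. PNPLA7, a lysophospholipase gene (chromosome 9, 137457955 to 137462101), had 48.9. A region 2080 bp from MRGBP, which encodes a subunit of the TIP60 acetyltransferase complex, had 46.7 and covers the LOC105372716 start shown above. The BRD3OS region, also shown above, was the eighth in rank with 46.4. All 8 of these highest-ranked regions had ARID1A in vehicle and TRβ with T3, and 5 had PBRM1 in vehicle.

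The strongest TRβ sites without BRG1 were weaker and shared fewer lists. A region on chromosome 21 (8252787 to 8254307) ranked first with 27.6, from 11.4 and 16.1. It had no protein-coding gene end within 100 kb, lay 608 bp from a BRG1 region and was in 6 lists. A pair of regions on chromosome 19, 36298994 to 36301600 and 36286686 to 36288391, had 21.1 and 20.3. Their nearest protein-coding genes were the zinc-finger genes ZFP14 and ZNF565, 34204 and 40893 bp away. Inside MICAL3, which encodes an actin-oxidising enzyme (chromosome 22, 17817493 to 17819136), the signal value was 20.5 and the nearest BRG1 region 28198 bp off. FASN, which encodes fatty acid synthase, held a region 4228 bp from its end (chromosome 17, 82093042 to 82094507) with 19.8, from 9.88 and 9.90, and BRG1 was 2539 bp away. The others were inside LOC124900629 (19.5) and LOC101929601 (19.5) and next to DNAAF1, a dynein assembly gene (19.4). Of these 8, only the chromosome 21 region had TRβ with T3, and none had BRG1 with T3.

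The strongest BRG1 sites without TRβ were either very narrow or very wide. The highest were at AVPI1 (121.7; chromosome 10, 97678879 to 97679000) and DONSON, a replication gene (108.0; chromosome 21, 33577604 to 33577707), at 122 and 104 bp in width. CXXC5 (105.9), ID3, which encodes an inhibitor of basic helix-loop-helix factors (105.7), TNFRSF1A, the TNF receptor gene (103.9), and SKIC8 (103.5) followed with regions from 8609 to 15021 bp wide. Of these 6 vehicle sites, 5 had TRβ with T3, the exception being ID3. Among all BRG1 regions without TRβ in vehicle the share was 6.95% (4410 of 63447). The widest BRG1 regions with TRβ lay at PLEC (11913 bp), MNT (10552 bp), SH2B3, an adaptor gene of cytokine signalling (9954 bp), and LFNG, a glycosyltransferase gene of the Notch pathway (9419 bp).

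Position relative to genes separated the TRβ classes. Gene ends are both the start and the stop of each annotated protein-coding or lncRNA gene, since the gene table used gives no strand. The summit was within 1 kb of one at 480 of 789 TRβ regions with BRG1 (60.8%, 57.3 to 64.3) and at 67 of 616 without (10.9%, 8.53 to 13.6). Fisher's exact test over the regions (two-sided, adjusted by Benjamini-Hochberg over 4 such tests) gave p = 3.91e-88, with a log2 odds ratio of 3.66 ± 0.21 (SE). Put the other way, BRG1 was listed at 480 of the 547 TRβ regions near a gene end (87.8%) and at 309 of the 858 elsewhere (36.0%). BRG1 regions with TRβ were near a gene end in 60.6% and those without TRβ in 23.6%.

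The median distance to a gene end was 534 bp for TRβ with BRG1 and 8609.5 bp for TRβ without. It was 587 bp for BRG1 with TRβ and 6193 bp for BRG1 without. Beyond 100 kb lay 0.634% of TRβ regions with BRG1 and 5.19% of those without. The classes were alike in another respect: the summit was inside a protein-coding gene in 60.8% with BRG1, 57.5% without, and 61.1% of BRG1 regions without TRβ. Inside a gene and over 1 kb from any gene end were 25.7% of TRβ regions with BRG1 and 50.6% of those without. The gene-end difference held within quintiles of width (Mantel-Haenszel log2 odds ratio 3.51) and of signal value (3.49).

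**Figure D3:**
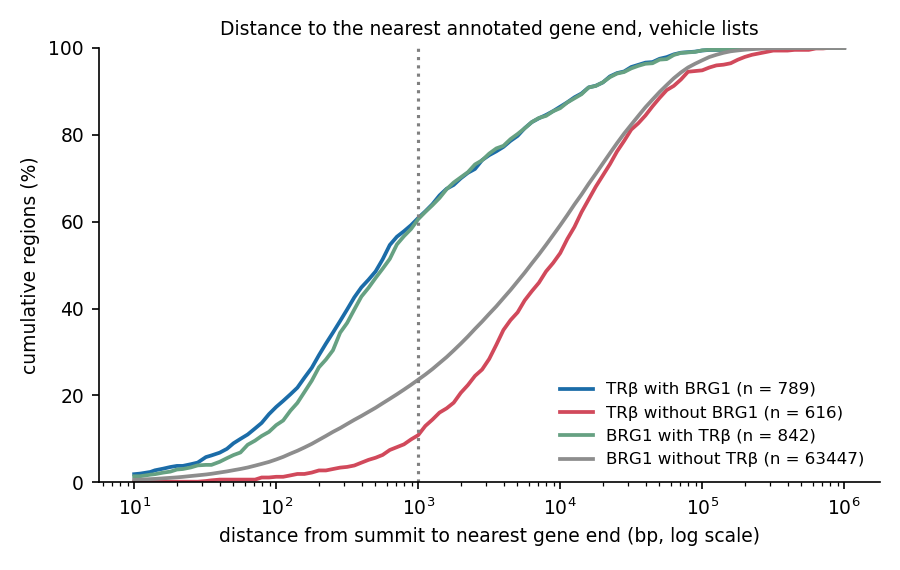
Cumulative share of regions (%) against the distance from the summit to the nearest annotated gene end (bp, log scale) for the 4 classes of vehicle regions. The dotted line marks 1000 bp, where TRβ with BRG1 stands at 60.8%, BRG1 with TRβ at 60.6%, BRG1 without TRβ at 23.6% and TRβ without BRG1 at 10.9%.

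The contrast was mainly one of gene starts. On the chromosomes that the table of gene starts covers the summit was within 1 kb of a start at 437 of 769 TRβ regions with BRG1 (56.8%) and 30 of 593 without (5.06%). Near a gene end but no start were 9.75% and 6.75%. The start-proximal TRβ summits with BRG1 were centred on the start, with a median position 10 bp upstream (quartiles 187 bp upstream and 194 bp downstream), and 48.5% lay downstream. BRG1 summits without TRβ lay slightly further in, at a median of 52 bp downstream.

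Over all 34961 stretches of 250 bases before a gene start, 627 touched a TRβ region with BRG1, 25 a TRβ region without, 15539 BRG1 alone and 18770 neither. The hexamer GGGCGG, on either strand, was present in 82.5% of the first, 52% of the second (13 of 25), 67.9% of the third and 20.5% of the last, and in 42.7% of all. Median GC content was 70.8%, 65.2%, 66% and 48.8% in that order, so the hexamer and GC content moved together. AGGTCA, the core hexamer of thyroid hormone response elements, was found on either strand in 6.70%, 12% (3 of 25), 8.28% and 15.3%, and in 12.04% of all. Its direct repeat, 2 copies spaced by 4 bases, was in 0 of the stretches with TRβ and in 5 of all. Any overlapping matches were counted as 1 stretch, and a match or its absence is a description of these letters only. The TRβ summit itself lay in such a stretch at 180 regions with BRG1 (22.8%) and 8 without (1.3%).

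Other SWI/SNF subunits were listed mostly at the TRβ sites that had BRG1. ARID1A was listed in vehicle at 677 of 789 TRβ regions with BRG1 (85.8%, 83.2 to 88.2) and at 135 of 616 without (21.9%, 18.7 to 25.4). The log2 odds ratio was 4.42 ± 0.20 (SE), with an adjusted p of 4.54e-136 by the same exact test. PBRM1 was listed in vehicle at 239 (30.3%) and 13 (2.11%), a log2 odds ratio of 4.28 ± 0.41 (SE) with an adjusted p of 4.55e-51 by that exact test. Both subunits were present at 221 regions with BRG1 (28.0%), ARID1A alone at 456 (57.8%), PBRM1 alone at 18 (2.28%) and neither at 94 (11.9%). Among TRβ regions without BRG1 the same counts were 7, 128, 6 and 475. Of the regions without BRG1, 337 (54.7%) overlapped no region of any other list, a state the other class cannot have. All 8 lists held 132 of the regions with BRG1 (16.7%), and leaving those out gave log2 odds ratios of 4.11 for ARID1A and 3.13 for PBRM1. Such regions have BRG1 and both subunits by definition, so leaving them out can only lower these ratios.

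Signal value moved with these shares. In the lowest quintile of TRβ signal value ARID1A was at 65.5% of regions with BRG1 and 15.7% without, and in the highest at 94.96% and 53.5%. PBRM1 in the same quintiles was at 23.8% and 1.52%, then 36.1% and 9.30%. Within quintiles of signal value the Mantel-Haenszel log2 odds ratios were 3.99 for ARID1A and 3.94 for PBRM1. Quintiles of width gave 4.19 and 4.02.

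BRG1 regions with TRβ also carried more subunits than BRG1 regions without it. ARID1A was at 85.3% (82.7 to 87.6) against 37.5% (37.1 to 37.9), and PBRM1 in vehicle at 32.5% against 12.7%. Much of the BRG1 list is weak, so the highest quintile of BRG1 signal value is the nearer comparison. There ARID1A was at 96.5% (438 of 454) with TRβ and 78.0% (9674 of 12404) without, and PBRM1 at 38.8% and 28.2%. A gene end lay within 1 kb of 63.7% and 35.0%. No test was made of these BRG1 classes.

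**Figure D4:**
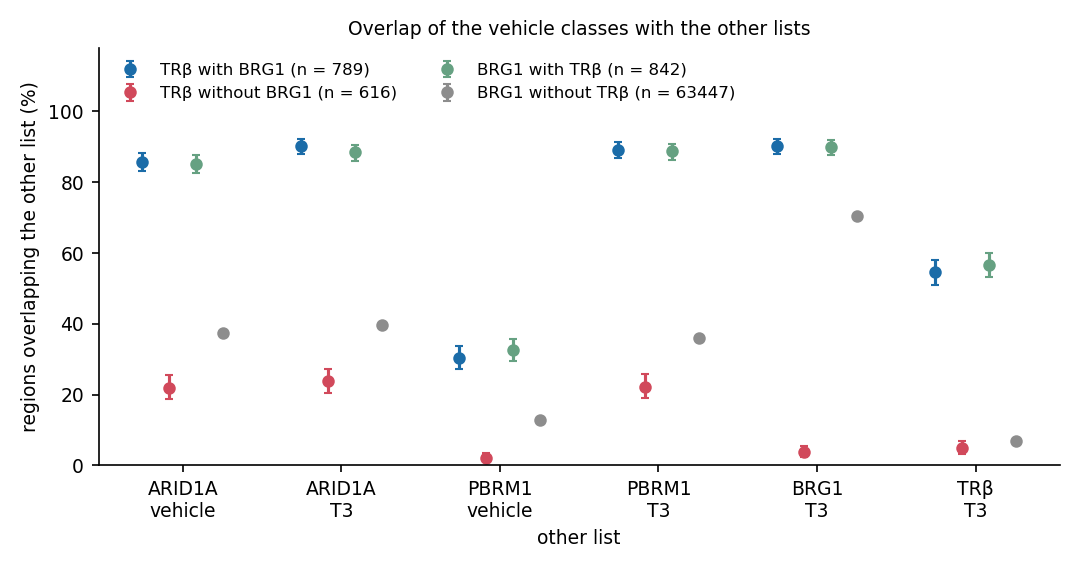
Share of regions (%) of each vehicle class that overlap a region of 6 other lists, with exact 95% intervals over regions. TRβ with BRG1 and BRG1 with TRβ lie together at the top of every list, and TRβ without BRG1 is lowest in each, down to 2.11% for PBRM1 in vehicle.

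The last comparison between lists asked which of the vehicle TRβ sites were listed again after T3. TRβ was listed with T3 at 431 of 789 regions with BRG1 (54.6%, 51.1 to 58.1) and 30 of 616 without (4.87%, 3.31 to 6.88). The exact test gave an adjusted p of 2.82e-99 and a log2 odds ratio of 4.53 ± 0.29 (SE). It was 4.27 within quintiles of width and 3.95 within quintiles of signal value. In the highest quintile of TRβ signal value the shares were 85.7% (204 of 238) and 16.3% (7 of 43). Near gene ends they were 59.6% (286 of 480) and 2.99% (2 of 67), and elsewhere 46.9% (145 of 309) and 5.10% (28 of 549). Between the 2 libraries of the TRβ T3 list the signal values had a Spearman correlation of -0.034. That correlation was 0.971 in the TRβ vehicle list. For ARID1A and PBRM1 in vehicle it was 0.158 and 0.898, and for BRG1 and PBRM1 with T3 0.472 and 0.256. How far this bears on the shares was not tested.

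After T3, BRG1 was listed at 712 of the 789 regions with BRG1 (90.2%), and at 301 of them TRβ was not. Neither was listed at 57 of the 789 (7.22%). BRG1 regions without TRβ were listed for BRG1 after T3 in 70.5% (44716 of 63447). In the highest quintile of BRG1 signal value the shares were 98.9% (12264 of 12404) without TRβ and 100% (454 of 454) with it. Of the 616 regions without BRG1 in vehicle, 23 (3.73%) had BRG1 with T3, and 565 (91.7%) had neither protein then. PBRM1 was listed with T3 at 89.2% of regions with BRG1 and at 22.2% of those without, from 30.3% and 2.11% in vehicle. The PBRM1 list after T3 holds 38132 regions against 9115 in vehicle, and how far list length sets these shares was not tested. With T3, 68.4% of 7186 TRβ regions had BRG1 of that condition. Among the 1405 of highest signal value, as many as the vehicle list holds, it was 94.5% (1328). Those 1405 are the top of a longer list, whereas the 56.2% in vehicle is the share over that whole list. In the highest quintile of TRβ signal value of the vehicle list it was 84.7%. The T3 ranking uses the signal values whose correlation between libraries was -0.034.

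The genes near each class were taken within 25 kb of either gene end. Of 19970 protein-coding genes, 2103 (10.5%) had a TRβ vehicle region, and 16355 (81.9%) had a BRG1 region. A TRβ region with BRG1 was near 1557 genes (7.8%) and one without BRG1 near 697 (3.49%), with 151 genes having both kinds. BRG1 but no TRβ was near 14310 genes and neither near 3557. Of 546 genes whose TRβ regions all lacked BRG1, 488 (89.4%) had a BRG1 region elsewhere in the window, near the 81.9% of all protein-coding genes. The median number of BRG1 regions was 7 near genes of TRβ with BRG1, 4 near genes of TRβ without, and 3 over all genes.

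None of THRA, THRB, RXRA, RXRB and RXRG had a TRβ region within 25 kb, and all 5 had BRG1. Among all protein-coding genes 10.5% had TRβ and 81.9% BRG1, so counts this small do not set the receptor genes apart. There were 10 BRG1 regions at THRA, 3 at THRB and 12 at RXRA. The nearest TRβ region to RXRA was 35449 bp from its end and lacked BRG1, and those of THRA and THRB were over 1000 kb away. NCOR1 had 4 BRG1 regions and no TRβ. The BRG1 gene SMARCA4 had 11 BRG1 regions, the strongest with a signal value of 40.7, and its nearest TRβ region was 27929 bp away. PBRM1 had 11 and no TRβ.

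Among the corepressor complex genes, 5 of 10 had TRβ and each had it with BRG1, against 10.5% of all genes with TRβ. SIN3A, a scaffold for deacetylases, held a TRβ region 4480 bp from its end (chromosome 15, 75450276 to 75453016) with 22.7, from 10.4 and 12.3. GPS2, a subunit of the NCOR complex, was 14601 bp from a region with 21.2 (chromosome 17, 7329767 to 7330663), which was 626 bp from another gene end. SIN3B, a paralogue of SIN3A, was 17058 bp from a region with 18.7. The remaining members, HDAC1 (17.9) and HDAC3 (9.75), are named after their values were seen. Their regions lay 17879 and 14610 bp away, and 97 and 41 bp from the end of another gene. Of the 5, only the SIN3A region lay in the gene it was counted for.

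Of 10 coactivator genes 1 had TRβ (10%), near the 10.5% of all protein-coding genes. It was CARM1, an arginine methyltransferase gene, with a region 346 bp from its end of 27.3 (12.3 and 15.05). BRG1 was there too (chromosome 19, 10870392 to 10871874). SWI/SNF genes had TRβ with BRG1 at 6 of 27 and TRβ without BRG1 at 0, against 7.8% and 3.49% of all protein-coding genes. Among 27 genes a count of 0 does not set them apart. The highest were BCL7B (17.1, a region 21038 bp away and 149 bp from another gene end), BCL7A (14.2, 362 bp from its end) and ARID1A (11.7). The ARID1A region (chromosome 1, 26696429 to 26698175) lay within a BRG1 region of 6494 bp, and its summit was 3916 bp from the BRG1 summit. It was absent from the TRβ list with T3.

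Of 14 classic T3-responsive genes, 1 had TRβ (7.14%), with BRG1, and 13 had BRG1, against 10.5% and 81.9% of all protein-coding genes. KLF9, a direct T3 target in many cells, had 3 BRG1 regions and its nearest TRβ region was 6044541 bp away. Hormone transport and synthesis genes had TRβ with BRG1 at 1 of 10 each, namely SLC3A2, the shared heavy chain of amino acid transporters (11.9), and DUOX1, a hydrogen peroxide generating oxidase gene (9.42). The DUOX1 region was listed only in the TRβ and BRG1 vehicle lists. DIO2, DIO3, SLCO1C1 and IYD, named after their values were seen, had a region of neither protein.

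PAX8, a thyroid lineage factor, was the only one of 5 such genes with TRβ, against 10.5% of all protein-coding genes. The region (chromosome 2, 113200969 to 113201482) was weak, with 9.57 from 4.78 and 4.79, and lay 14697 bp from the gene. PAX8 had 20 BRG1 regions, the strongest with 51.2. NKX2-1, named after its values were seen, had neither TRβ nor BRG1.

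Lipid and cholesterol synthesis genes had TRβ at 7 of 20 (35%), 5 of them with BRG1 and 2 without. Among all protein-coding genes 10.5% had TRβ. LSS, which encodes lanosterol synthase, was 3814 bp from a region with 28.6, from 12.5 and 16.1 (chromosome 21, 46184207 to 46185144). That region lay 85 bp from another gene end. ACSS2, an acetyl-CoA synthetase gene, held one with 20.2 whose summit was 2 bp from that of BRG1. FASN, described above, had 2 TRβ regions and both lacked BRG1. NR1H2, the liver X receptor β gene and named after its values were seen, had 1 such region (9.84). Of 20 glycolysis and hypoxia genes 3 had TRβ, each with BRG1: PFKL, a phosphofructokinase gene (22.2), VEGFA, an angiogenic factor gene (19.2), and SLC2A1, a glucose transporter gene (13.1). The PFKL region was 11722 bp from an end of that gene and 295 bp from another gene end.

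Among growth genes, 5 of 24 cell cycle genes had TRβ with BRG1, against 7.8% of all protein-coding genes. They were led by CDK4 (20.8), CCNE1, the cyclin E gene (20.7), and CDKN1B, an inhibitor gene of cyclin-dependent kinases (13.7). These regions lay 19847, 20521 and 3040 bp from an end of the gene named. Those counted for CDK4 and CDKN1B were 52 and 286 bp from another gene end. Of 26 receptor kinase, RAS and PI3K genes, 4 had TRβ with BRG1 and 2 without, against 7.8% and 3.49% of all protein-coding genes. TSC2, a brake on mTOR, had both kinds (19.5 with BRG1), ERBB3 had TRβ with BRG1 (15.4), and HRAS was 3382 bp from a region that no other list held (12.5). The TSC2 region with BRG1 lay 24550 bp from an end of TSC2. The ERBB3 region lay 15029 bp from an end of ERBB3 and 268 bp from another gene end. In the list of RUNX, STAT and interferon factors 5 of 19 had TRβ with BRG1, against the same 7.8%. They were led by JAK3, a cytokine receptor kinase gene (29.6), IRF7 (15.3) and IRF1 (12.4, a region 5563 bp away). JAK3 had a TRβ region without BRG1 as well.

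MNT and MYCL (14.9) were the MYC network genes with TRβ, 2 of 12. AP-1 genes had it at 2 of 14, FOSB (11.7, a region 24291 bp away) and MAFG (10.2, a region 6873 bp away and 2 bp from another gene end). Mesenchymal and matrix genes had it at 2 of 22, COL1A1, a collagen gene (17.3, a region 8193 bp away), and ZEB1, an epithelial-to-mesenchymal transition factor gene (12.1). Junction and keratin genes had it at 1 of 18, CLDN7, a claudin gene (9.80, a region 20311 bp away and 416 bp from another gene end). Each of these was with BRG1. Over all lists, counting a gene once, 47 of 263 genes (17.9%) had TRβ and 44 of them had TRβ with BRG1. For all protein-coding genes the shares were 10.5% and 7.8%, and 254 of the 263 had BRG1. No test was made of the lists.

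**Figure D5:**
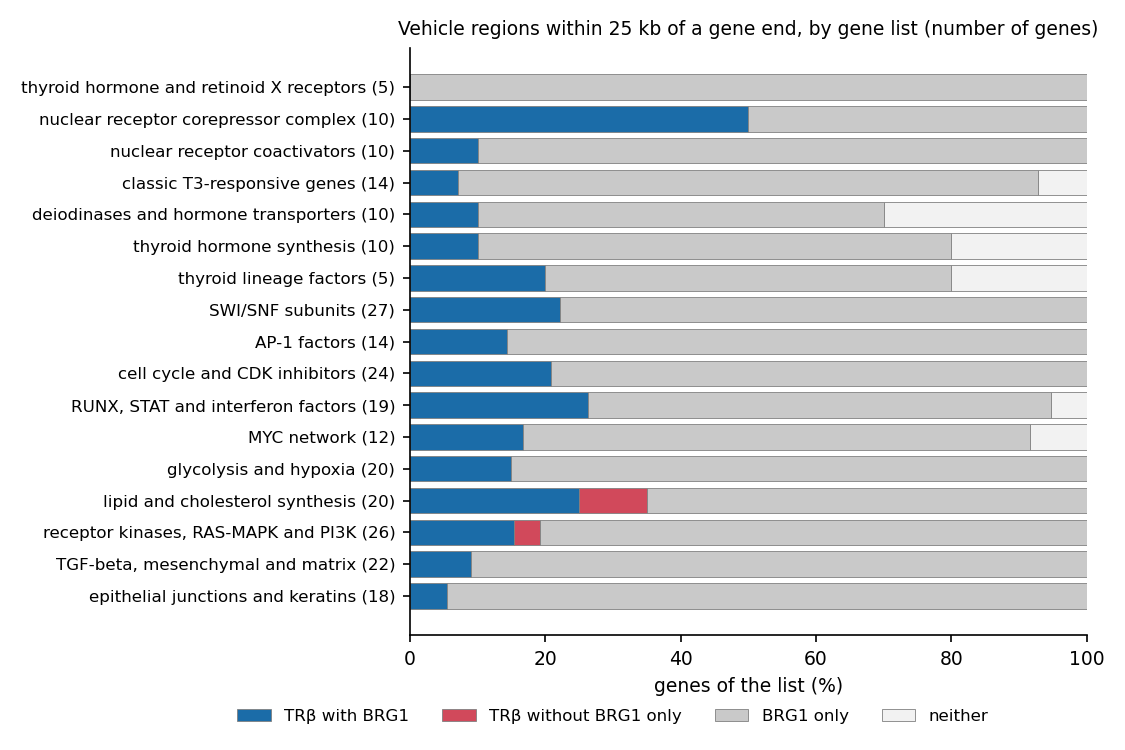
Share of the genes of each list (%) with a vehicle region within 25 kb of a gene end, split into TRβ with BRG1, TRβ without BRG1 only, BRG1 only and neither, with the number of genes in brackets. TRβ with BRG1 is at 50% of the corepressor list and 0% of the receptor list, and TRβ without BRG1 appears alone in the lipid and the receptor kinase lists.

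Chromosomes differed in the mix of classes. The share of TRβ regions with BRG1 was 71.7% on chromosome 19 (76 of 106, 62.1 to 80.0) and lowest, 37.1%, on chromosome 22 (23 of 62, 25.2 to 50.3). Chromosomes 12 (71.7%, 38 of 53) and 13 (72.7%, 16 of 22) were as high as chromosome 19. These intervals do not allow for the choice of chromosomes. Chromosome 19 held 7.54% of TRβ regions and 4.03% of BRG1 regions. A larger share of TRβ regions of either class than of BRG1 regions without TRβ lay near the outer ends of chromosomes. Within 5 Mb of the outermost annotated gene were 26.4% with BRG1 and 37.2% without, against 11.5% of BRG1 regions without TRβ. Most regions of each class lay further in. No test was made of these shares.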

How the data were processed

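Each deposited list is in the layout of IDR output, with regions found in both libraries of a group. Tools named in the submitters' processing notes, with no role or setting, are MACS2, Bowtie2, Trim Galore and CASAVA 1.7, and the build is hg38. Use of the IgG library as a control is not given in the sources used here. The signal value deposited by the authors was used to rank and describe regions within a list. The deposited −log10 of the IDR showed that lists reach 0.05. The interval is the union of the library intervals, and the replicate number of each library column is not given in the sources used here.

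Regions on chromosomes 1 to 22 and X were used, which left out 32 TRβ and 104 BRG1 regions. Classes needed 1 bp of overlap. The summit is the listed one, and for several BRG1 regions the nearest summit counts. Gene ends, from 38147 protein-coding and lncRNA genes, and gene starts came from RefSeq tables of GRCh38.p14, the same build; the table of starts used here covers these chromosomes other than 8. All 266 entries of 17 gene lists matched by symbol. Odds ratios had 0.5 added to each cell. Two-sided Fisher's exact tests were adjusted by Benjamini-Hochberg over 4 tests. Shares have exact 95% (Clopper-Pearson) intervals, and medians have intervals from binomial ranks. Regions that neighbour each other are not independent.

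Members and lists were chosen with earlier results of these data known. Named genes are 10 fixed ones, the top 8 TRβ regions of each class, the top 6 BRG1 regions without TRβ, up to 3 genes a list by TRβ signal value, 4 regions with the nearest summits and the 4 widest BRG1 regions with TRβ. Some genes that this rule names are left out. Regions took the name of the protein-coding gene with the nearest end within 100 kb. Alternatives changed the IDR limit, the overlap rule, the intervals, the summits, list length and the windows. Counting was tested on simulated lists. The work used Python 3.11.15 with scipy 1.17.1, statsmodels 0.14.6, matplotlib 3.10.9, pandas 2.3.3 and numpy 2.4.6.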

Additional observations from a re-analysis of the deposited data

How the results depend on the processing

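No paired analysis was possible because each group has 1 list, which joins its libraries. The 4 log2 odds ratios kept their direction and an adjusted p under 0.05 in every alternative run, between 1.76 (PBRM1, reciprocal overlap of 50%) and 4.96 (PBRM1, without chromosomes 19, 21 and 22). That last alternative and the quintiles of TRβ signal value were chosen after seeing the data.

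The share of TRβ regions with BRG1 was 79.4% at an IDR of at most 0.01, 27.3% with reciprocal overlap of 50%, 52.7% with the TRβ summit inside a BRG1 region, 6.48% against a BRG1 list of equal length and 40% for 400 bp around the summits. The share of BRG1 regions with TRβ was 0.377%, 0.597%, 1.14%, 6.26% and 0.877% in these, 1.55% with a gap of up to 500 bp and 1.21% without the 3 chromosomes.

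The median summit distance was 177.5 bp at the stricter IDR, 173 bp with reciprocal overlap, and 371 and 369 bp with the summits of the first and the second library. Median width with BRG1 was 1445.5 bp at the stricter IDR, 1188.5 bp with reciprocal overlap, and 881 and 893 bp with the intervals of the first and the second library. Without BRG1 it was 1342, 660 and 700 bp at the stricter IDR and with those library intervals. The gene count was 381 at the stricter IDR, 855 with reciprocal overlap, 156 with a BRG1 list of equal length, and 857 and 3262 in windows of 5 and 100 kb. Fewer regions or other windows entered these by construction. Read depth, which limits what a list can hold, is unknown.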
